A study of Mus musculus with 2 samples.

Results

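Amino acid catabolism and the urea cycle were followed in FLS and DS mouse livers through 52 genes listed by name. A probe set, a group of short oligonucleotides that match a transcript, was taken for a gene if its annotation named that gene alone, under its current symbol or a synonym. Of the 52 genes, 51 were found among the 18194 named genes of the array (Mut under its current symbol Mmut), and Amt was not analysed here. Where several probe sets named a gene, the one with the highest mean of both signals stood for it, and a gene counted as measured if its signal intensity exceeded 500 in at least 1 pool. All 51 genes met this limit, so it removed none of them. They were grouped as urea cycle (7 genes), methionine and one-carbon metabolism (14), aromatic amino acids (9), branched-chain amino acids (8) and other (13).

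The arrays compared pooled liver RNA of 3 FLS mice, a strain used as a model of non-alcoholic steatohepatitis (NASH), with that of 3 DS mice, used as a model of simple steatosis. Both are inbred strains, derived from the C line (FLS) and the A line (DS) of the outbred ddN colony, and they carry no transgene. All mice were 19 weeks of age, ate the same standard pellet diet (CE-2) and had livers perfused with saline before removal. With 1 array per strain there is no replicate error, no p-value can be given, and each ratio below describes these 2 arrays.

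The liver breaks down most amino acids that are not used for protein synthesis. Their nitrogen passes through transaminases and glutamate dehydrogenase to ammonia, which the urea cycle of periportal hepatocytes turns into urea, while glutamine synthetase in perivenous hepatocytes takes up what remains. Methionine feeds the methyl donor S-adenosylmethionine, and serine, glycine, betaine and histidine supply one-carbon units to folate. The carbon skeletons of aromatic and branched-chain amino acids end in fumarate, acetoacetate, acetyl-CoA or succinyl-CoA, or in precursors of nicotinamide nucleotides.

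Over all 45101 probe sets the median signal was 120.3 in FLS against 125.2 in DS livers. The labelled tissue was checked by 9 hepatocyte markers, of which 7 were found, with signals from 19142 to 32018 and FLS/DS ratios from 1.02 to 1.07. Among markers of other cells, the summed signal of 4 macrophage markers was 1415 in FLS against 1968 in DS livers, with 3 of them lower in FLS livers and Cd68 higher (ratio 1.26). Cd68 did not exceed 500 in either pool. The sum of 4 stellate cell markers was 2957 and 2218, with Reln and Pdgfrb higher (1.38 and 2.02) and Lrat and Des below 1 (0.880 and 0.987). Only Reln of this list exceeded 500, and Pdgfrb had signals of 361 in FLS against 179 in DS livers. The sum of 3 endothelial markers was 2795 and 2506, with Stab2 higher (1.34) and Pecam1 and Kdr below 1 (0.858 and 0.976). Pecam1 had signals below 500 in both pools. The sum of 4 cholangiocyte markers was 729 and 543, a difference that came from Sox9 (365 and 140), while Krt7, Krt19 and Epcam had ratios of 1.02, 0.889 and 0.861 and no marker of this list exceeded 500. All markers found for T cells (2), B cells (1) and neutrophils (2) had signals of at most 208 in both pools. In such tissue RNA, fewer cells of a type and less RNA per cell cannot be told apart, and the part of these cells in the ratios below was not tested.

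Most genes of the module had nearly the same signal in both strains. Of the 51 genes, 32 (62.7%) had FLS and DS signals within 1.2-fold of each other, against 63.6% of all 5076 measured genes. At a limit of 1.5-fold, 1 gene was higher in FLS livers (Amdhd1, 2.03-fold) and 4 were lower (Mccc1, Afmid, Csad and Asl, with ratios from 0.258 to 0.644). This balance depended on the scaling, since dividing each ratio by the Actb ratio (Actb being the reference gene of the study's PCR) gave 6 genes higher and 2 lower. That division raised the log2 ratio of every gene by 0.21. The shares of all measured genes given next were computed without it. Among all measured genes, 6.11% were higher by 1.5-fold or more and 4.49% lower by that much, 10.6% in either direction, against 9.80% of the module. At 2-fold, 1 gene was higher (Amdhd1) and 1 lower (Mccc1), with a background of 2.29% higher and 1.77% lower. These shares are near the background, so the module as a whole was not set apart from other liver genes by its number of differences. Of the lower genes, Mccc1 and Csad exceeded 500 in the DS pool alone. With 500 required in both pools, 2 genes were lower by 1.5-fold and 0 by 2-fold. No share of all measured genes was computed for that limit. Of the 51 ratios, 24 were above and 27 below 1, against 2861 above and 2215 below 1 among all measured genes. Their median was -0.02 on the log2 scale for the 51 genes against 0.04 for all measured genes. Measured probe sets of 1 gene scattered around their mean with a pooled SD of 0.22 on the log2 scale (1424 genes), which is a technical yardstick and does not cover the variation between mice.

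**Figure D1:**
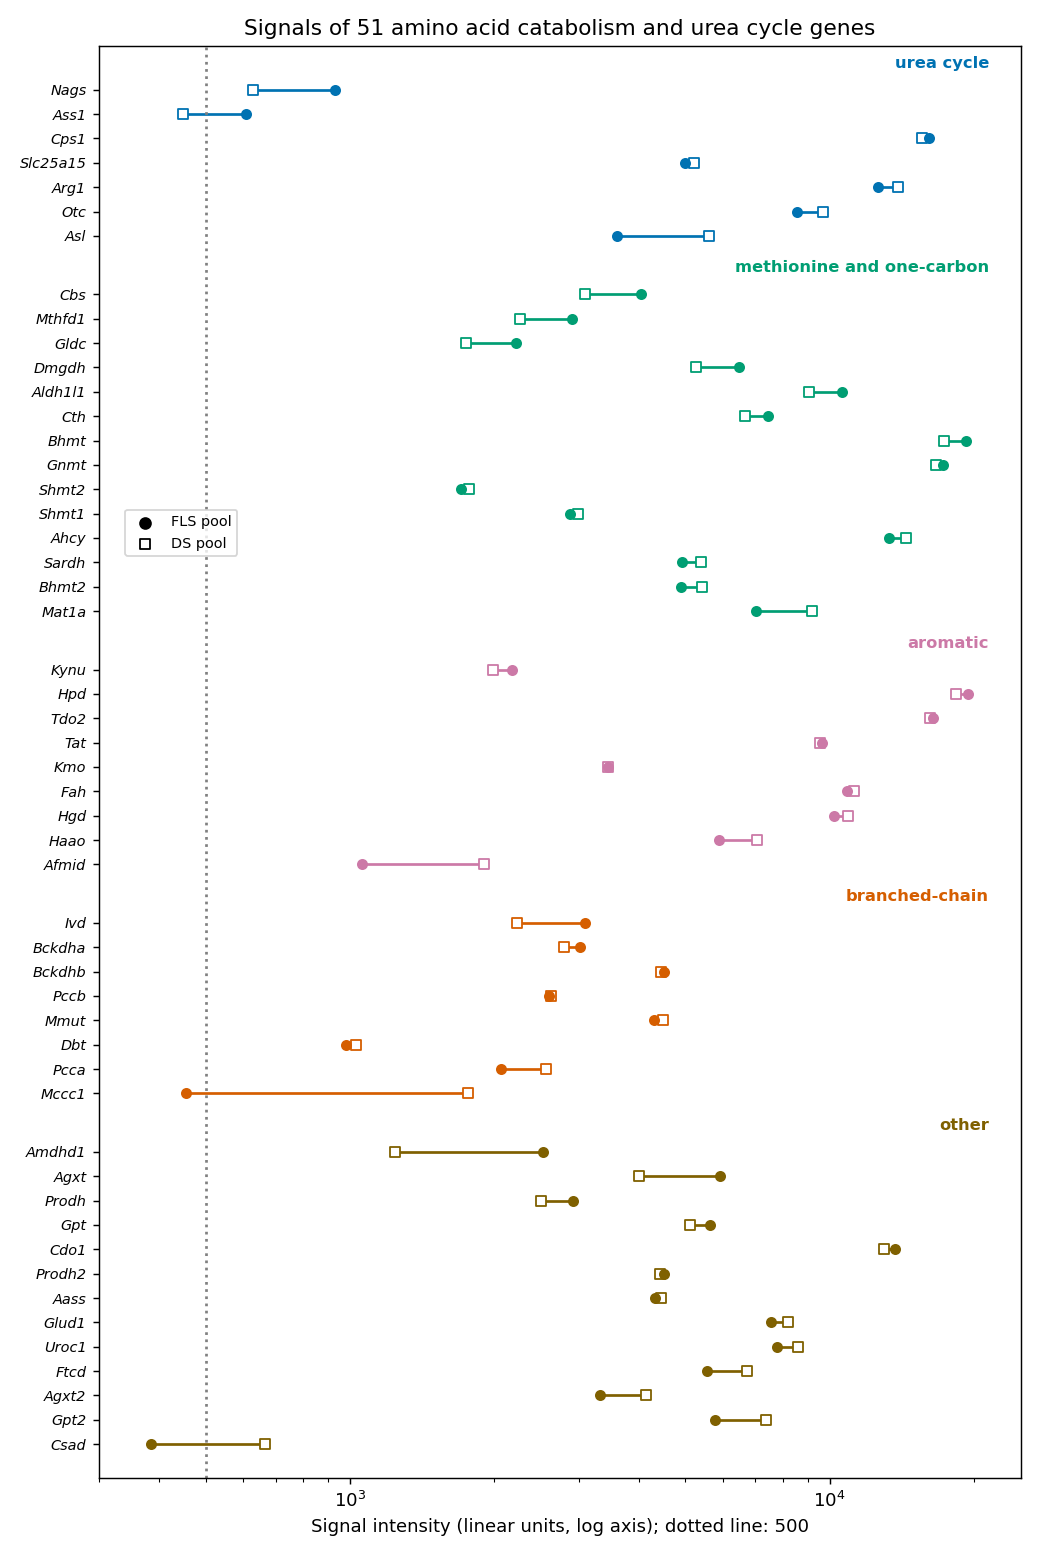
Signal intensity (log axis) of the 51 genes in the FLS pool (filled circles) and the DS pool (open squares), 1 array each, grouped by pathway and ordered by FLS/DS ratio within each group. Dots mark the limit of 500. Most pairs of symbols lie close together, while Mccc1, Afmid, Csad and Asl have the FLS symbol well to the left and Amdhd1 has it to the right.

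In the urea cycle, the median log2 ratio was -0.07 over 7 genes, and 1 of them differed by 1.5-fold. Asl encodes argininosuccinate lyase, which splits argininosuccinate into arginine and fumarate. Its signal was 3605 in FLS against 5599 in DS livers, which gives a ratio of 0.644, read from its single probe set. Division by Actb brought Asl to 0.742 and so inside the 1.5-fold limit. The enzymes around it were closer to 1. Cps1, the carbamoyl phosphate synthetase that starts the cycle in mitochondria, had signals of 16147 and 15587 in FLS and DS livers. Otc, which joins carbamoyl phosphate to ornithine, had signals of 8547 and 9710. Arg1, the arginase that releases urea, had signals of 12608 and 13894, and Slc25a15, the mitochondrial ornithine carrier, 4989 and 5220. Thus 4 of the 7 genes had ratios between 0.880 and 1.04.

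The remaining pair of urea cycle genes was higher in FLS livers by less than 1.5-fold on the deposited signals. Division by Actb brought both past that limit (Nags 1.70, Ass1 1.56). Nags makes N-acetylglutamate, the obligate activator of carbamoyl phosphate synthetase, and had a signal of 929 in FLS against 629 in DS livers, giving a ratio of 1.48, just under the limit. Over 4 other scalings of the arrays its ratio ran from 1.43 to 1.70. Ass1, which encodes argininosuccinate synthase, the step before Asl, had a signal of 607 in FLS against 449 in DS livers, giving a ratio of 1.35. A second probe set, which the annotation gives to Ass1 and to Gm5424 together and which the gene rule therefore left out, had signals of 17559 and 15480, a ratio of 1.13. Both probe sets were higher in the FLS pool, in the direction opposite to Asl. The DS signal of 449 was below the signal limit, so Ass1 counted as measured through the FLS pool alone. The shared probe set, with far higher signals, had a log2 ratio of 0.18, inside the scatter of 0.22 between probe sets of the same gene. The ratio of 1.35 thus rests on the weaker probe set.

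In methionine and one-carbon metabolism, none of the 14 genes reached a 1.5-fold difference on the probe set that stood for it. Among all measured genes 10.6% did, so with so few genes this count does not set the group apart. Ratios ran from 0.763 to 1.31 with a median log2 ratio of 0.10, and 8 genes were above and 6 below 1. The lowest was Mat1a, the liver form of methionine adenosyltransferase that makes S-adenosylmethionine, with a signal of 7029 in FLS against 9211 in DS livers. The highest was Cbs, cystathionine beta-synthase, which commits homocysteine to cysteine synthesis, with signals of 4046 and 3086. Its second probe set had a ratio of 1.28, next to 1.31 for the first. Division by Actb brought Cbs to 1.51, past the 1.5-fold limit. Cth, which completes the synthesis of cysteine, had a ratio of 1.12.

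The other enzymes of the methionine cycle lay between these. Gnmt, the glycine N-methyltransferase that disposes of excess S-adenosylmethionine, had signals of 17216 and 16656. Ahcy, which hydrolyses S-adenosylhomocysteine, had a ratio of 0.925. The betaine-dependent methyltransferases Bhmt and Bhmt2 had ratios of 1.11 and 0.905.

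Among genes tied to folate, ratios lay on both sides of 1. Mthfd1, the trifunctional cytosolic folate enzyme, had a signal of 2907 in FLS against 2267 in DS livers, giving a ratio of 1.28. Gldc, the glycine decarboxylase of the glycine cleavage system, had signals of 2215 and 1742, a ratio of 1.27. Dmgdh, dimethylglycine dehydrogenase, had a ratio of 1.23 and Aldh1l1, which oxidizes formyl-tetrahydrofolate, of 1.17. Below 1 were sarcosine dehydrogenase (Sardh) at 0.912, the serine hydroxymethyltransferases Shmt1 and Shmt2 at 0.960 and 0.966, and Ftcd, a folate enzyme of histidine breakdown, at 0.828. Another measured probe set of Shmt1, described below, had a ratio of 2.39.

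Among genes of aromatic amino acid breakdown, 7 of 9 had FLS and DS signals within 1.2-fold of each other and 8 within 1.5-fold, and the median log2 ratio was -0.004. The exception was Afmid, the arylformamidase that turns N-formylkynurenine into kynurenine. Its signal was 1062 in FLS against 1902 in DS livers, which gives a ratio of 0.559. A second probe set had signals of 295 and 564, a ratio of 0.523, and counted as measured through the DS pool alone. On the last pair of Afmid probe sets, with signals of at most 193, the ratios were 0.918 and 0.844. The median over all 4 probe sets was 0.687, inside the 1.5-fold limit.

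The enzymes before and after Afmid in the kynurenine pathway did not differ to that extent. Tdo2, the tryptophan dioxygenase that opens the pathway, had signals of 16461 in FLS against 16201 in DS livers, and its 3 probe sets had ratios from 0.998 to 1.08. Kmo, the kynurenine monooxygenase, had signals of 3446 and 3455. Kynu had a ratio of 1.09 and Haao, which makes the precursor of quinolinic acid, of 0.832. The tyrosine enzymes Tat, Hpd, Hgd and Fah, which lead from tyrosine to fumarate and acetoacetate, had ratios of 1.01, 1.06, 0.935 and 0.966.

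In branched-chain amino acid breakdown, Mccc1 stood apart from the other 7 genes. Mccc1 encodes the biotin-carrying subunit of methylcrotonyl-CoA carboxylase, a mitochondrial enzyme of leucine breakdown. Its signal was 456 in FLS against 1764 in DS livers, which gives a ratio of 0.258 and the lowest of all 51 genes. The FLS signal was below 500, so Mccc1 counted as measured through the DS pool alone. The ratio stayed between 0.254 and 0.298 over 4 other scalings of the arrays. A second probe set had signals of 236 and 313, both below 500, and a ratio of 0.754, so the median over both was 0.441. Mccc2, which encodes the partner subunit of the same enzyme and was read as a companion gene, had signals of 1837 and 1724, a ratio of 1.07.

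The sequence before the Mccc1 start site is shown because this gene had the largest difference of the module. It is the RefSeq reference sequence (GRCm38.p6, a genome of the C57BL/6J strain and of neither FLS nor DS), 250 bases at chr3:36000679-36000928, minus strand, written 5′ to 3′ toward the start site. Capitals mark the letters CCAAT or GGGCGG on either strand.
Mccc1: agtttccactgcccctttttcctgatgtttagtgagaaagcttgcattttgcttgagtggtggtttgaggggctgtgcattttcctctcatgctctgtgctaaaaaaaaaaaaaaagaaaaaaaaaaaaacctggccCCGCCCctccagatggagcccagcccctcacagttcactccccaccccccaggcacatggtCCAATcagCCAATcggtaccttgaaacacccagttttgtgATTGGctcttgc
The window holds 3 CCAAT boxes, which begin 52, 44 and 12 bases before the start site, and 1 GC box. Of all 32851 promoter windows of this length, 33.8% held at least 1 CCAAT box and 2.79% held at least 3. These letters describe the reference sequence, and no binding was measured.

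Of the 8 branched-chain genes, 5 had FLS and DS signals within 1.2-fold of each other, and Mccc1, Ivd and Pcca did not. Ivd, isovaleryl-CoA dehydrogenase, acts on leucine just before methylcrotonyl-CoA carboxylase and had a signal of 3093 in FLS against 2226 in DS livers, giving a ratio of 1.39, with 1.66 on its second probe set. The subunits of the branched-chain ketoacid dehydrogenase, Bckdha, Bckdhb and Dbt, had ratios of 1.08, 1.02 and 0.951. The propionyl-CoA carboxylase subunits Pcca and Pccb had ratios of 0.807 and 0.989, and the methylmalonyl-CoA mutase gene Mmut of 0.960. Without Mccc1 and Ivd, the 6 other genes thus had ratios between 0.807 and 1.08.

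The largest difference in the direction opposite to Mccc1 was that of a single gene of histidine breakdown, Amdhd1. Amdhd1 encodes imidazolonepropionase, which opens the imidazolone ring. Its signal was 2525 in FLS against 1241 in DS livers, which gives a ratio of 2.03. On its second measured probe set the signals were 977 and 771, a ratio of 1.27, and the median over both was 1.61. The 2-fold difference of Amdhd1 therefore rests on 1 of its probe sets, and an offset of 50 on both signals also brought it under 2-fold. Uroc1, the urocanase before it, had signals of 7771 and 8599, and Ftcd, the formiminotransferase after it, 5561 and 6720. Hal, the histidine ammonia-lyase that starts the pathway and a companion gene, had a ratio of 1.11.

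The sequence before the start site of Amdhd1 is shown as that of the gene with the highest ratio. It is 250 bases of GRCm38.p6 at chr10:93540034-93540283, minus strand, from the same RefSeq table and with the same marks.
Amdhd1: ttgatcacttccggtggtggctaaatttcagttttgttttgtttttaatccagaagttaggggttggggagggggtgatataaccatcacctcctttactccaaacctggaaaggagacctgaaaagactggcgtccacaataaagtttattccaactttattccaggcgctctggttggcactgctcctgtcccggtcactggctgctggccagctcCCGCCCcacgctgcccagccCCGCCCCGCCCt
This window holds 3 GC boxes, each read as CCGCCC from the other strand, of which the last pair shares a base, and 0 CCAAT boxes. Among all promoter windows, 32.7% held at least 1 GC box and 7.69% held at least 3. Over the 46 windows found for 41 genes of the module, 43.5% held a CCAAT box and 47.8% a GC box, while TATAAA was found in 10.9% against 12.4% of all windows, TGACG in 10.9% against 17.8% and CACGTG in 6.52% against 6.02%, each searched on both strands. The median share of G and C was 55.8% in the module and 52.4% in all windows.

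Csad, cysteine sulfinate decarboxylase, catalyses the step from cysteine sulfinate toward taurine. Its signal was 384 in FLS against 665 in DS livers, which gives a ratio of 0.578 from its single probe set. The FLS signal was below 500, so Csad counted as measured through the DS pool alone. Cdo1, the cysteine dioxygenase that supplies its substrate, had signals of 13700 and 12959, a ratio of 1.06. Csad was thus the lower of this consecutive pair of steps, and its ratio came to 0.667 after division by that of Actb, just inside the 1.5-fold limit.

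The other genes of nitrogen transfer and single amino acids differed less. Agxt, the alanine-glyoxylate aminotransferase that detoxifies glyoxylate, had a signal of 5906 in FLS against 4014 in DS livers, giving a ratio of 1.47, just below the limit, with 1.46 to 1.70 over other scalings. Agxt2, the mitochondrial aminotransferase of related name, had a ratio of 0.802. Gpt, the cytosolic alanine aminotransferase, had signals of 5636 and 5118, whereas Gpt2, its mitochondrial counterpart, had signals of 5778 and 7361. The 4 probe sets of Gpt2 had ratios from 0.678 to 0.951, all below 1. Glud1, glutamate dehydrogenase, had a ratio of 0.924, the proline and hydroxyproline dehydrogenases Prodh and Prodh2 of 1.16 and 1.02, and Aass, which starts lysine breakdown, of 0.974.

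**Figure D2:**
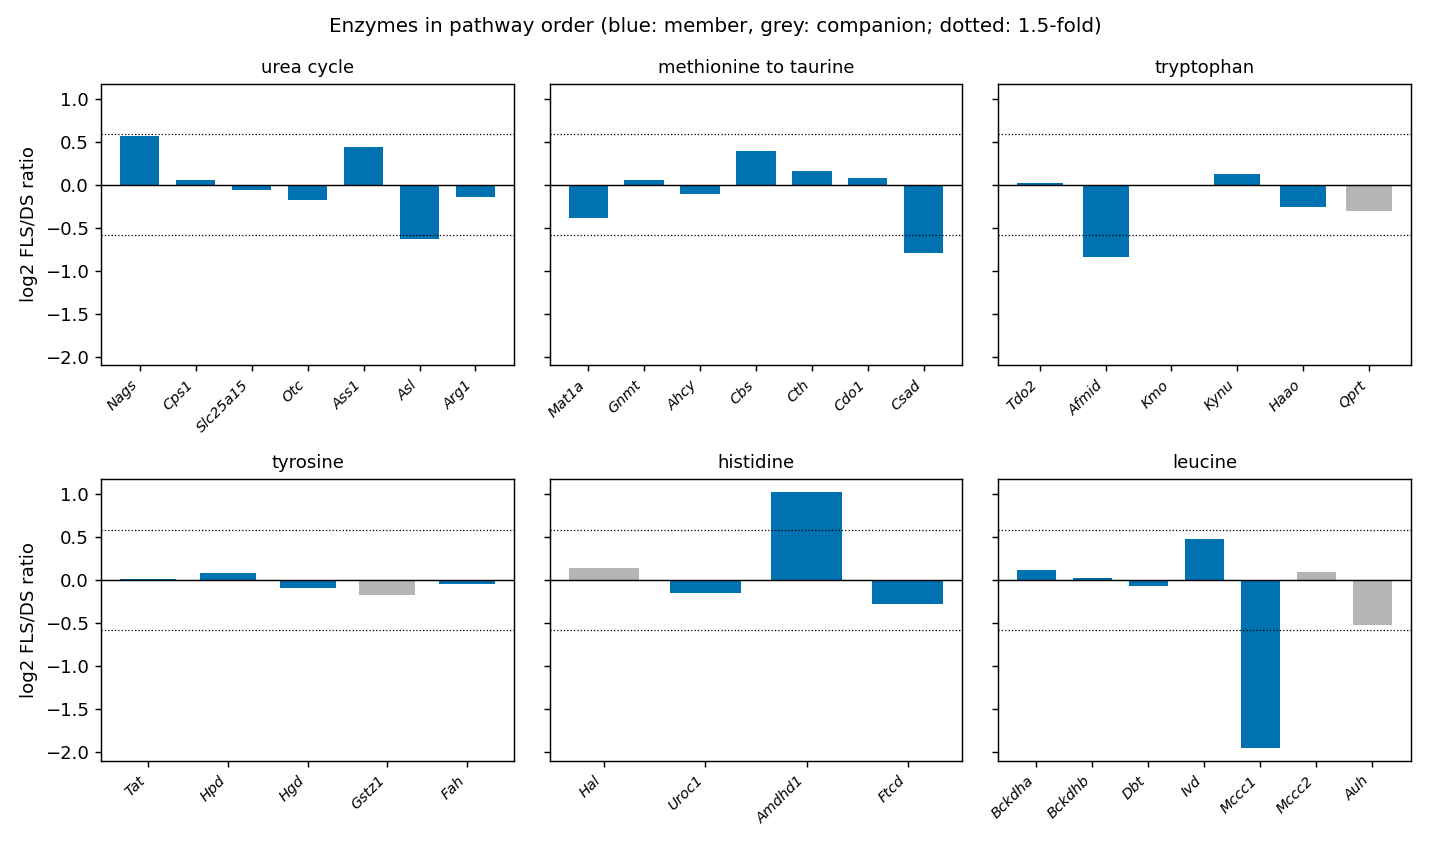
log2 FLS/DS ratio of enzymes in the order in which they act on each pathway, with genes of the module in blue, companion genes in grey and dotted lines at 1.5-fold (1 array per strain, no error bars can be given). In each of the urea cycle, methionine to taurine, tryptophan, histidine and leucine panels 1 bar passes the dotted line (Asl, Csad, Afmid, Amdhd1 and Mccc1), and in the tyrosine panel none does.

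Set out in pathway order, the 5 genes beyond 1.5-fold lay in 5 different pathways. Each pathway as drawn had a single such enzyme, and the genes of the steps directly before and after it had ratios between 0.696 and 1.39. The lowest of these neighbours was the companion gene Auh, the hydratase after methylcrotonyl-CoA carboxylase, with signals of 871 and 1251, and the highest was Ivd. The order of steps was drawn up after the values were seen, so it is a way to read them and supports nothing further. Oat, Ddc, Dhtkd1 and Suox, companion genes beyond 1.5-fold that are described below, were not drawn. A single such enzyme per pathway thus depends on which genes were drawn. Asl and Csad came inside the 1.5-fold limit after division by Actb, and Afmid with the median over its probe sets, while Ivd passed the limit in both settings (1.60 and 1.52). By location in the cell, also assigned afterwards, the 23 mitochondrial genes had a median log2 ratio of -0.04 and the 28 others of 0.02. Of the 5 genes beyond 1.5-fold, 1 (Mccc1) is mitochondrial.

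**Figure D3:**
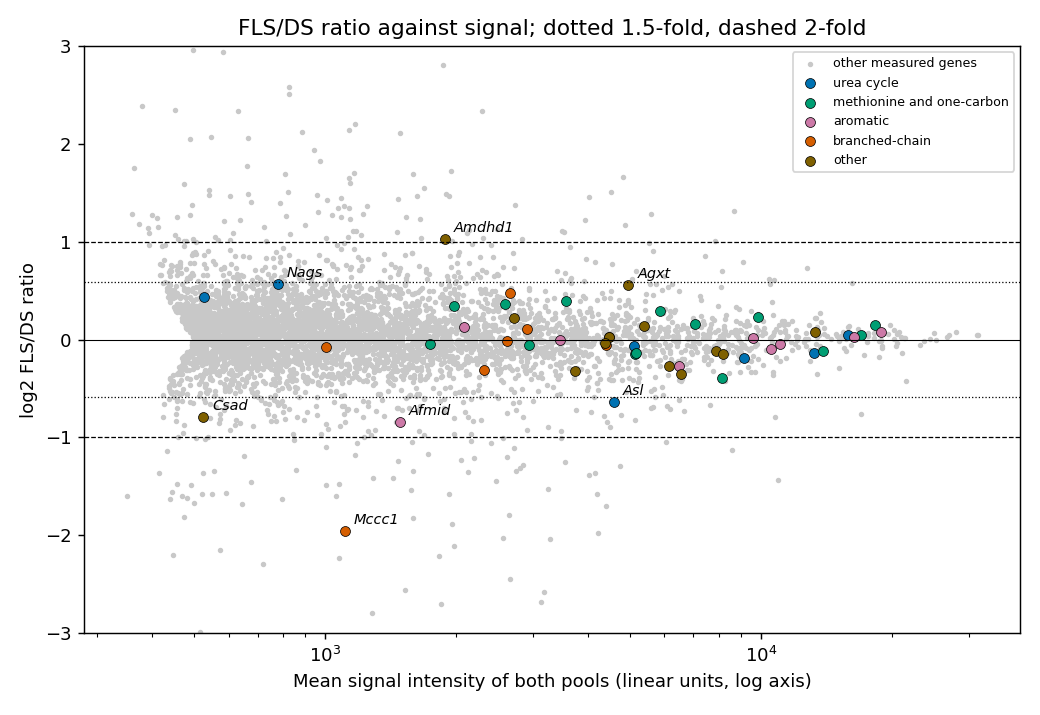
log2 FLS/DS ratio against the mean signal intensity of both pools (log axis) for the 5076 measured genes (grey) and the 51 genes of the module (coloured by pathway), with dotted lines at 1.5-fold and dashed lines at 2-fold. The genes with higher signals cluster around 0, whereas Mccc1, Afmid, Csad and Amdhd1 lie at mean signals below 2000, and 21 other genes fall outside the range of 3 on the log2 axis.

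Most of the differences beyond 1.5-fold fell on genes with a lower mean signal. Of the 42 genes of the module with a mean signal above 2000, 1 (Asl) differed by at least 1.5-fold, which is 2.38% against 9.44% of the 1387 measured genes above that signal. Of the 9 genes with a lower mean signal, 4 differed (Mccc1, Afmid, Csad and Amdhd1), or 44.4% against 11% of 3689 measured genes. The signal of 2000 was chosen after the values were seen, and with so few genes these shares are a description. The median absolute log2 ratio was 0.14 in the module above that signal and 0.14 among all measured genes above it.

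**Figure D4:**
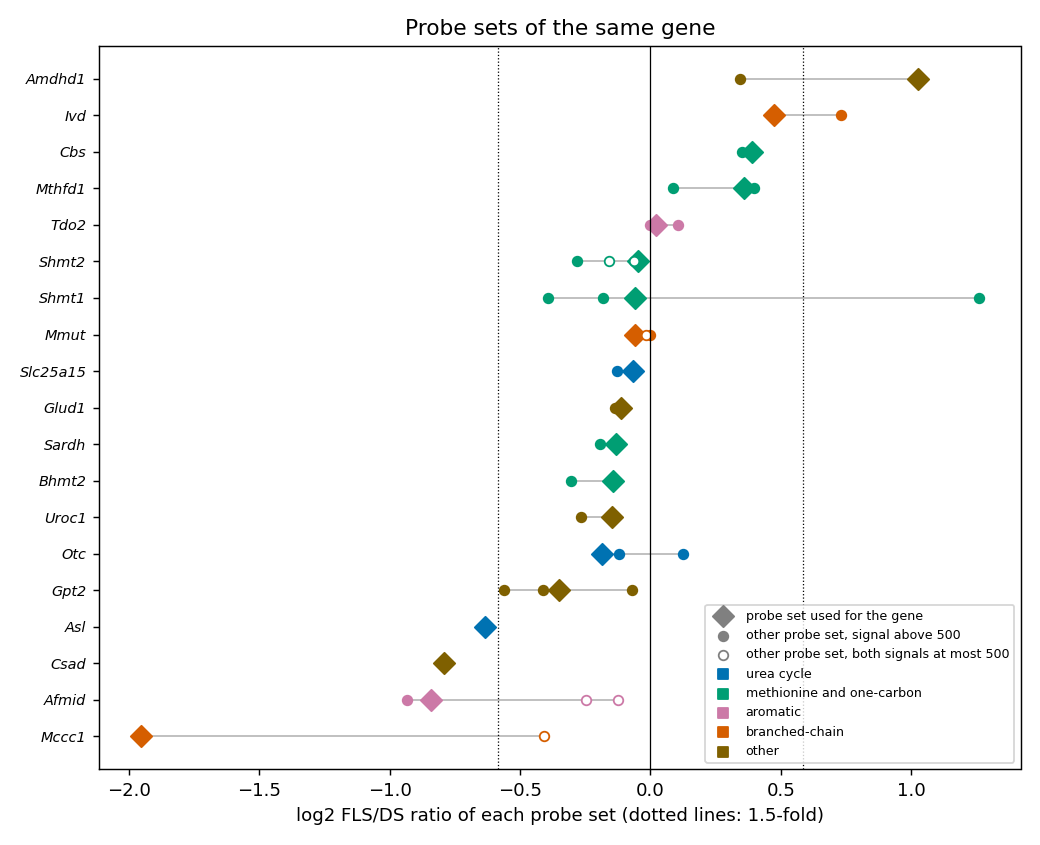
log2 FLS/DS ratio of every probe set for the genes with more than 1 measured probe set and for the 5 genes beyond 1.5-fold, coloured by pathway as in the other plots. Diamonds mark the probe set used for the gene, filled circles other probe sets with a signal above 500 and open circles those at or below it in both pools. Most genes have their symbols close together, while Shmt1 has 1 probe set far to the right of its other 3.

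Where a gene had several measured probe sets, these mostly gave like ratios. Of 16 such genes, 14 had all measured probe sets within 1.5-fold of each other. The exceptions were Shmt1 and Amdhd1. For Shmt1, cytosolic serine hydroxymethyltransferase, 3 probe sets had ratios of 0.960, 0.882 and 0.761, while the remaining one had a signal of 1767 in FLS against 739 in DS livers, giving a ratio of 2.39. No probe sequences were used here, so whether these probe sets read different transcripts of Shmt1 was not tested. A further 35 genes, among them Asl and Csad, rest on 1 measured probe set each. Mccc1 is also among them, as its second probe set did not exceed 500.

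Other enzymes and carriers of amino acid metabolism were read as a companion list of 76 genes, of which 65 were found and 47 measured. Of the 47, 1 was higher and 3 were lower by 1.5-fold or more (8.51% together, against 10.6% of all measured genes), and the median log2 ratio was -0.07. Oat, ornithine aminotransferase, which links ornithine to proline and glutamate, had a signal of 11562 in FLS against 6663 in DS livers, giving a ratio of 1.74. Ddc, the aromatic amino acid decarboxylase, had signals of 742 and 3211, a ratio of 0.231, and its second probe set, with both signals below 500, had a ratio of 0.255. Dhtkd1, the oxoadipate dehydrogenase of lysine and tryptophan breakdown, had signals of 1419 and 2913, a ratio of 0.487. Suox, the sulfite oxidase at the end of sulfur amino acid breakdown, had signals of 1125 and 2151, a ratio of 0.523. The remaining 43 lay within 1.5-fold, among them Glul, glutamine synthetase, which was picked out after its values were seen. Its ratio was 1.45 on the probe set with signals of 7231 and 4988 and 2.56 on another with 4191 and 1635.

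Among regulators that act on these enzymes, 10 of 13 genes were measured and none reached a 1.5-fold difference on the probe set that stood for the gene. Among all measured genes 10.6% did, so with so few genes this count does not set the regulators apart. Cebpa, a transcription factor needed for urea cycle gene expression, had a signal of 5628 in FLS against 4279 in DS livers, giving a ratio of 1.32, whereas Cebpb had 3415 and 4561, a ratio of 0.749, and a second probe set with 1469 and 2218 had 0.662. Foxo1, a transcription factor held back by insulin, had a ratio of 0.791, and its 2 other measured probe sets had 0.595 (605 and 1018) and 0.749. The glucagon receptor gene Gcgr had a ratio of 0.851, the glucocorticoid receptor gene Nr3c1 of 0.840, Hnf4a of 1.12 and Klf15, a regulator of amino acid breakdown in fasting, of 1.09. Ppara, Atf4 and Creb3l3 had ratios of 0.924, 1.16 and 1.11. The ratios of the 10 genes thus ran in both directions, with a median log2 ratio of 0.01.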

How the data were processed

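Liver RNA of 2 pools, 3 FLS mice and 3 DS mice at 19 weeks, was hybridized to 1 Affymetrix mouse array each. The authors normalized the arrays and summarized the perfect-match probes of each probe set (MBEI, PM-only), and the deposited signal intensities are linear. The processing notes name affy, without the scaling between arrays. Of 45101 probe sets, 34958 were annotated to 1 gene, 932 to several and 9211 to none, and symbols were updated by Entrez number from RefSeq (GRCm38.p6). FLS/DS ratios were computed without offset. Named are all members, companion genes differing by 1.5-fold or more, Actb, and others said to be picked afterwards or set beside a result. The members and lists were chosen with earlier results of these data known.

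The alternatives were quantile normalization, median centring, loess (fraction 0.4), division by Actb, adding 50 to both signals, the median over probe sets, omission of _x_at and _s_at probe sets, signal limits of 200, 1000 or none, and 500 in both pools. A ratio or median was taken to move beyond 0.22 on the log2 scale and a count beyond 1.5 times. Calculations were tested on simulated data. The software was Python 3.11.15 with matplotlib 3.10.9, numpy 2.4.6, pandas 2.3.3 and statsmodels 0.14.6. Having 2 arrays in all limits the precision.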

Additional observations from a re-analysis of the deposited data

How the results depend on the processing

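No paired analysis was possible because each strain has 1 array. The number of genes at least 1.5-fold higher in FLS livers was 2 under quantile normalization (Amdhd1 and Agxt) and 3 after median centring (with Nags as well). It was 6 after division by Actb (with Ivd, Ass1 and Cbs added to these). The Actb ratio of 0.867 moved the median of all genes up by 0.21 on the log2 scale. The number at least 1.5-fold lower was 2 after division by Actb (Afmid and Mccc1) and 2 with a signal above 500 in both pools, which leaves out Mccc1 and Csad, so that the number at least 2-fold lower was 0. Amdhd1 was under 2-fold with an offset of 50 and with the median over probe sets, so that the number at least 2-fold higher was 0 in both, and this median gave 2 genes at least 1.5-fold higher (Amdhd1 and Ivd). Shares of all measured genes were computed only for the deposited signals with 500 in at least 1 pool. The counts under other settings thus have no background beside them, and these settings can also change the counts among all genes. The median log2 ratio of the 51 genes ran from -0.03 to 0.19 over the scalings and moved by less than 0.22 in every group and setting tried. That limit is the scatter of single probe sets and not that of a median. Division by Actb adds the same 0.21 to every log2 ratio, so it could not move a median past the limit. No gene beyond 1.5-fold changed direction. The median over probe sets moved Mccc1 to 0.441, Afmid to 0.687 and Amdhd1 to 1.61. Reading Ass1 from its shared probe set, a setting added after the data were seen, moved it to 1.13. The causes were not tested.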

Other observations

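Afmid and Tk1, the thymidine kinase gene, have annotated start sites on opposite strands that lie 95 bases apart in the RefSeq annotation of GRCm38.p6. Each start lies downstream of the other on its own strand. Tk1 was looked up after the ratio of Afmid was seen. Its signals were 321 (FLS) and 622 (DS) on its single probe set, a ratio of 0.516. The FLS signal was below the signal limit, so Tk1 passed it in the DS pool alone. Afmid had a ratio of 0.559 on the probe set that stood for it and 0.687 as the median over its probe sets. Whether the ratios of these genes are linked was not tested.

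Ppargc1a, a coactivator of fasting metabolism on the list of regulators, did not exceed a signal of 500 in either pool. It is named here after its values were seen, because all 5 of its probe sets had FLS/DS ratios above 1.5, from 1.54 to 1.95, and the one with the highest mean read 219 in FLS against 112 in DS livers. These DS signals lie near or below the array median of 125.2, so the ratios are uncertain.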
